A study of Drosophila melanogaster with 18 samples.

Results

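The mitochondrial ribosomal protein genes of Drosophila melanogaster were followed over the passages of 2 cell lines called R3 and R7. The members were all genes with a gene symbol that starts with mRpL or mRpS and a number, after symbols had been updated through Entrez gene numbers, with the brightest probe set of each gene over the 18 arrays. This gave 69 genes of 11982 named on the array, 44 with an mRpL and 25 with an mRpS symbol. The symbols were given after the large and the small ribosomal subunit, but the human counterparts of mRpS18A and mRpS30 sit in the large subunit, so the split follows symbols and not structure. Of 73 such genes in the RefSeq annotation, mRpL53 and mRpS10 shared their probe set with another gene and mRpL34 and mRpL37 had no probe set named here, so these 4 were not analysed. Each line was hybridised at passage 2 (P2) in 2 replicates and at P7, P8, P16, P17 and P19, R3 also at P5 and P6 and R7 also at P3 and P4, with 1 array each. Early means P2 in R3 and P2 and P3 in R7. Intermediate means P5 to P8 in R3 and P7 with P8 in R7. Late means P16 to P19, 3 arrays in each line. P4 falls into both the early and the intermediate range of the study's stages and was kept apart. All cultures were grown in Schneider's medium with fetal bovine serum and antibiotics, in flasks, and each line was sampled as 1 series. The labels used here give no genotype, tissue of origin or cell type.

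Mitochondria carry their own ribosomes, which make the few proteins encoded by mitochondrial DNA, nearly all of them subunits of the respiratory chain and the ATP synthase. The ribosomal RNAs come from mitochondrial DNA, whereas every protein of these ribosomes is encoded in the nucleus, made in the cytosol and imported. Some of the proteins have counterparts in the bacterial ribosome and others are found only in mitochondria. In flies, a partial loss of tko, which encodes a protein of the small subunit, delays growth and causes bang sensitivity.

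Values are probe set intensities on a linear scale, as the authors deposited them. A probe set was tested if it lay above an intensity of 32 on at least 2 arrays, and lower values were set to 32 before log2. All 69 members passed, since each lay above 32 on all 18 arrays, with values from 158 to 1609; their levels therefore hold no values at the floor. Within a member, the highest array exceeded the lowest by 1.20-fold to 2.26-fold. Array medians over all non-control probe sets ran from 23.2 to 30.4, and the 3' to 5' ratio of the GAPDH control probe sets ran from 1.14 to 1.35. By arm, 11 members lie on X, 12 on 2L, 10 on 2R, 17 on 3L and 19 on 3R. Successive passages of 1 culture stand for replicates here, so p-values measure the spread between passages and arrays and not between independent cultures. A gene is called, or said to rise or fall, at a Benjamini-Hochberg adjusted p under 0.05 over the 10200 tested probe sets in limma.

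The members moved together from array to array, and the same arrays stood out under both kinds of symbol. The median member lay 0.24 (log2) above its own 18-array mean in R3 P2 replicate 1 and at -0.14 in R3 P2 replicate 2. It lay at -0.099, -0.011, -0.096 and -0.063 in P5, P6, P7 and P8. In P16 and P17 it lay at -0.20 and -0.087, and in P19 it was back at 0.23. Thus R3 P2 replicate 1 and R3 P19 were high and the other 7 R3 arrays were at or below the mean. Replicate 2 was lower than replicate 1 in 66 of 69 members (median -0.39, log2), against 47.1% of all tested probe sets. P19 was higher than P17 in 64 of 69 (median 0.32), against 41.1%. Whether R3 arrays were exchanged or handled differently cannot be told from the labels, and each R3 early or late value below carries that doubt.

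The highest R3 array was P2 replicate 1 for 30 members and P19 for 29. Over all tested probe sets these arrays were the highest for 19.3% and 14.7%. The lowest R3 array was P16 for 33 members, against 5.66% of all tested probe sets. P16 was lower than P8 in 60 of 69 members, against 39.5% of all tested probe sets. mRpL46, a large-subunit protein found only in mitochondria, shows the pattern in its values: 606 in P2 replicate 1, 269 in P2 replicate 2, 371, 425, 357 and 406 in the intermediate arrays and 329, 433 and 479 in P16, P17 and P19. It was picked after its values were seen. mRpL48, also found only in mitochondria, ran the other way, with 447 and 489.9 at P2, 499, 542, 586 and 597 in the intermediate arrays and 631, 551 and 402 in the late ones.

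**Figure D1:**
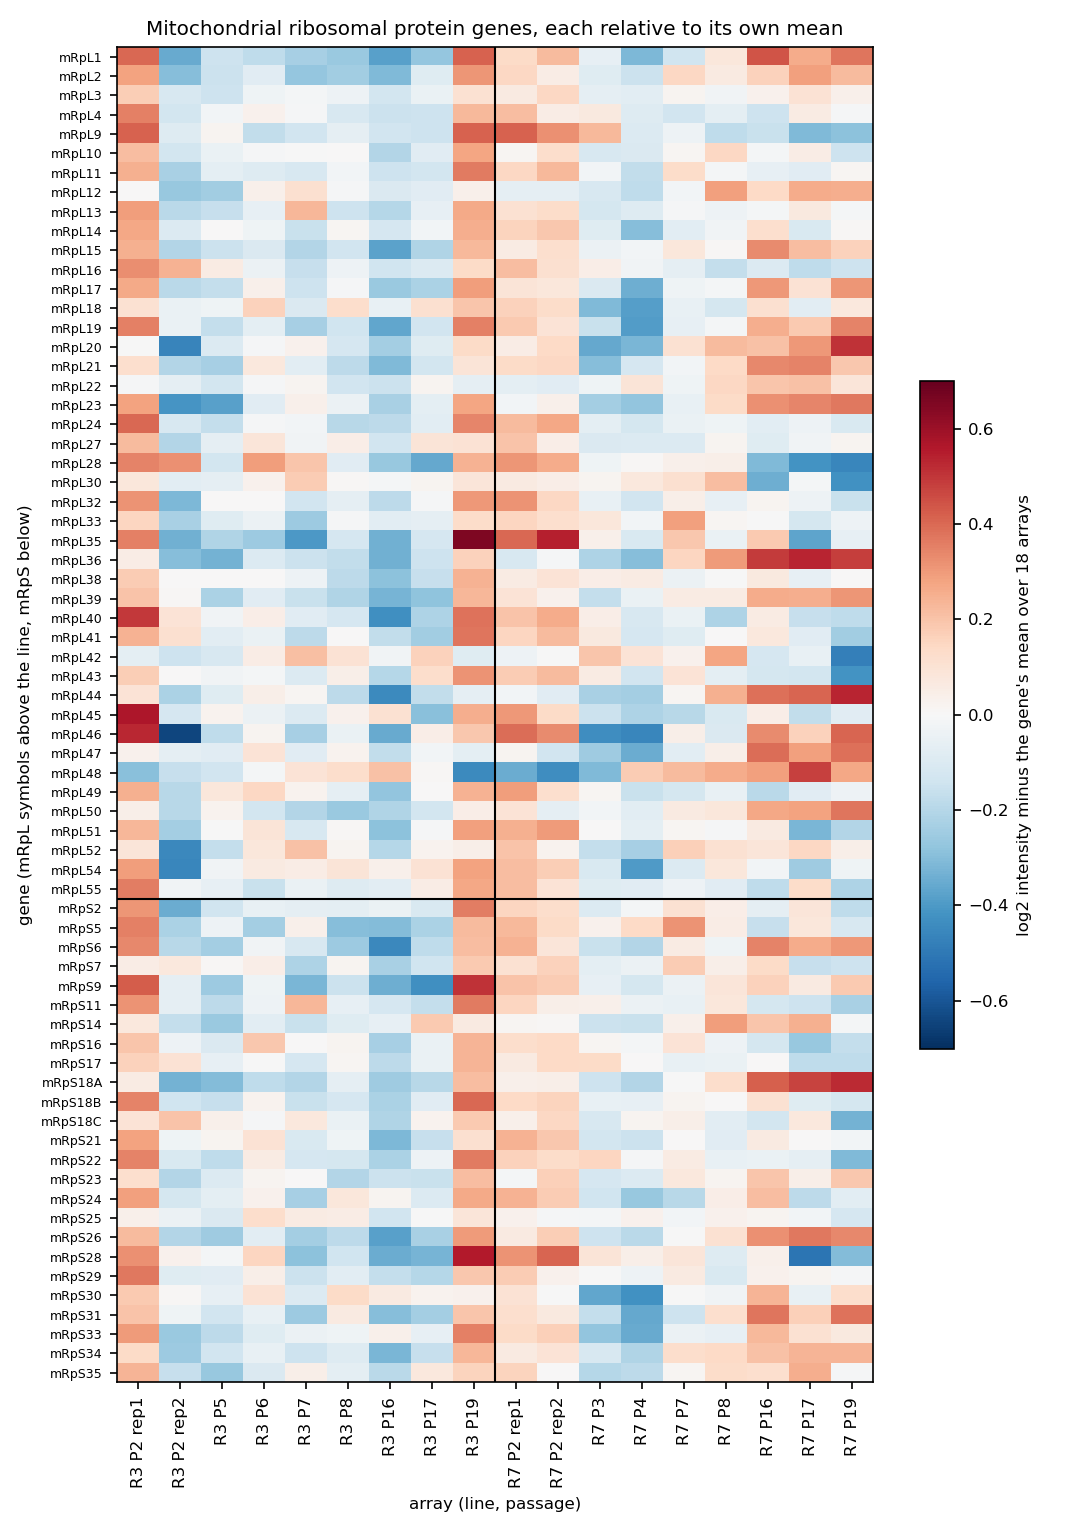
Log2 intensity of each of the 69 members (rows) on each of the 18 arrays (columns), minus the gene's mean over the 18 arrays; red is above and blue below that mean. R3 P2 replicate 1 and R3 P19 are red in nearly every row (65 and 64 of 69 above their mean), and R7 P3 and P4 are mostly blue.

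In R7 the members lay lower in P3 and P4 than in the P2 arrays, and higher again from P7 on. The median member lay at 0.14 and 0.12 (log2, from its own mean) in the 2 P2 arrays, at -0.085 in P3 and at -0.12 in P4. It then lay at 0.011 and 0.016 in P7 and P8, and at 0.087, 0.054 and -0.011 in P16, P17 and P19. Both P3 and P4 lay below both P2 arrays for 59 of 69 members, against 35.4% of all tested probe sets. They lay below all 5 arrays from P7 to P19 for 32 of 69, against 14.9%. They lay above both P2 arrays for 3 members (21% of all tested probe sets) and above the 5 later arrays for 2 (11.5%). Setting P3 and P4 apart from P2 was decided after the values were seen, and these counts carry no test. The 2 P2 replicates of R7 were close, with a median difference of -0.018. mRpS30 gives an example, chosen by its values: 517 and 481 at P2, 376 at P3, 360.0 at P4 and between 465 and 569 from P7 on.

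The members did not stay as close together in late R7. The SD of the 69 deviations was 0.13 and 0.13 (log2) in the R7 P2 arrays, 0.10 and 0.12 in P7 and P8 and 0.19, 0.22 and 0.26 in P16, P17 and P19. In R3 it lay between 0.097 and 0.17. This widening was not tested. The spread of all tested probe sets was not computed beside it, so it cannot be called particular to the members. The mRpL and mRpS genes had nearly the same medians on each array. They differed by at most 0.067 (log2), at R3 P2 replicate 2.

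**Figure D2:**
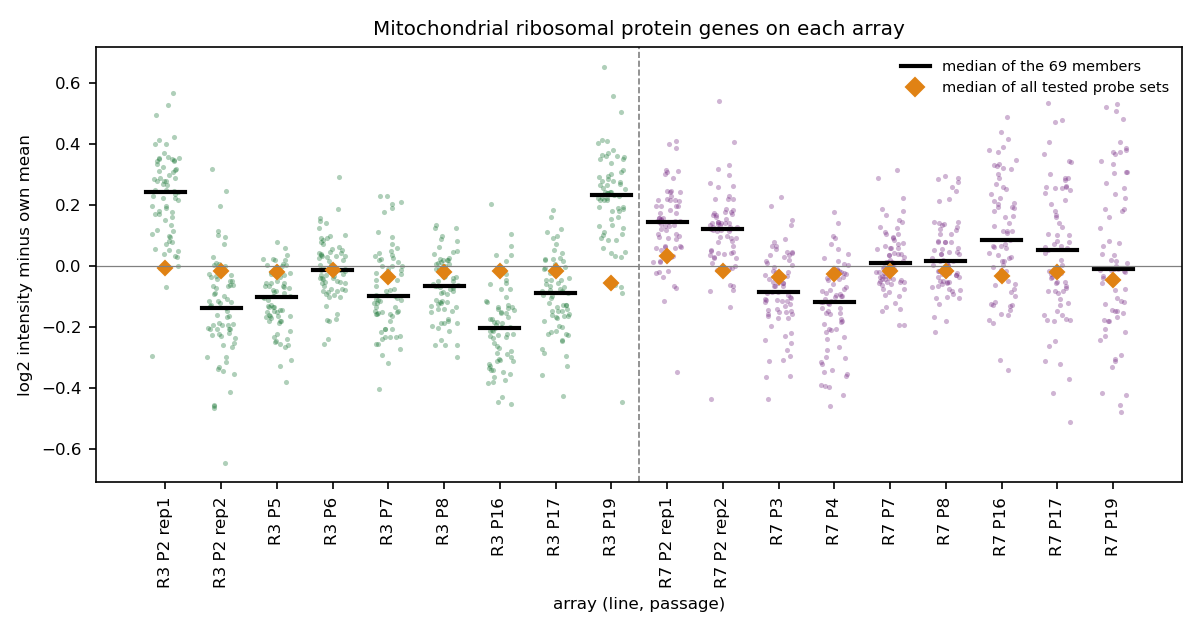
Deviation of each member from its own 18-array mean (log2, y axis) on each array (x axis), with 1 point per gene, the median of the 69 members (black bar) and the median of all tested probe sets (orange diamond). The members' medians are highest in R3 P2 replicate 1 (0.24) and R3 P19 (0.23), and the points spread widest in R7 P16 to P19.

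The array median over all non-control probe sets, which lay below 32 on each array, moved with this pattern in R3. The median deviation of all tested probe sets was -0.0042 (log2) in R3 P2 replicate 1 and -0.054 in R3 P19. It was -0.035 to -0.012 in the other 7 R3 arrays. R3 P2 replicate 1 and R3 P19 had array medians of 27.4 and 29.7, against 23.8 to 25.3 in the other 7, and 47.2% and 48.5% of probe sets above 32, against 44.7% to 45.4%. In R7 the array medians were 27.7 and 29.3 at P2, 30.4 at P3, 28 at P4 and 23.2 to 26.3 from P7 on. High array medians thus went with high members in R7 P2 and with low members in R7 P3 and P4. At most 48.9% of probe sets lay above 32 on any array. Scaling to equal medians therefore aligns the arrays at a level below the floor. Scaling each array to an equal median left R3 P19 above P17 in 39 of 69 members (22.2% of all tested probe sets), and quantile normalization in 66 (41.6%). Equal medians left R3 P2 replicate 2 below replicate 1 in 52 (29.0%), and quantile normalization in 66 (42.5%). In R3 P2 replicate 1 and R3 P19 the members stood 0.25 and 0.29 (log2) above the median of all tested probe sets there, as deposited. The values were 0.22 and 0.36 when quantile-normalized, and 0.21 and 0.25 once medians were made equal. In R7 P3 and P4 they stood at -0.049 and -0.091 as deposited, -0.0047 and -0.074 when quantile-normalized, and -0.087 and -0.12 once medians were made equal. The count below both P2 arrays was 40 of 69 after quantile normalization (23.4% of all tested) and 60 with equal medians (33.6%).

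Markers of blood cells also moved over these arrays. The summed intensity of 15 haemocyte markers was 11951 to 24519 in R7 early, 8308 at P4, 11320.0 to 12089 in R7 intermediate and 11096 to 13082 in R7 late. In R3 it was 14216 to 15116 in early, 16342 to 19369 in intermediate and 12275 to 20033 in late arrays. The sum hides opposite moves of single markers, picked here after their values were seen. In R3 P7, P8, P17 and P19, He had 918, 125, 164 and 2042. Hml had 148, 516, 446 and 78, and NimC1 260, 133, 136 and 202. The crystal cell gene lz lay below the floor on all arrays of every group, and Pxn on all R7 intermediate and late arrays. Of the 14 tested haemocyte markers, 6 fell and 0 rose between R7 early and late, against 11.2% and 8.75% of all tested probe sets. The neuroblast genes wor, dpn and pros lay below the floor in every group but R7 early, through which alone they could enter the test, so no count of that list is given. The haemocyte list's median deviation was -0.23 and -0.43 (log2) in R3 P2 replicate 1 and R3 P19, -0.016 in R3 P2 replicate 2 and 0.26 to 0.57 in the other 6 R3 arrays. In R7 it was 1.19 and 1.10 at P2, -0.29 at P3, -0.96 at P4 and below 0 in all later arrays. Other marker lists moved as well over R7 P2, P3 and P4. Fat body markers (4 tested) lay at 0.76, 0.76, -0.14 and -0.14, with Fbp1 below the floor in every group but R7 early. Epithelium markers (5 tested) lay at 0.14, 0.021, 0.24 and 0.47. Adult muscle precursor markers (6 tested) lay at -0.11, -0.16, 0.079 and -0.13. The part of these cell types in the members' levels was not tested. In bulk RNA, fewer cells of a type and less RNA per cell cannot be told apart.

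Between R7 early and late arrays, 7 members rose and 5 fell by limma, of 69. Over all tested probe sets 8.75% rose and 11.2% fell, 19.9% in all, beside 17.4% of the members, a share near that of the whole array. The median change of the members was -0.054 (log2), against -0.030 for all tested probe sets, with a range from -0.57 to 0.71. In 20 members all 3 late arrays lay above all 3 early ones, and in 13 they lay below, against 17.6% and 19.6% of all tested probe sets. Of the mRpL genes, 6 rose and 5 fell of 44. Of the mRpS genes, 1 rose and 0 fell of 25. The split of calls depended on the scaling, with 9 higher and 3 lower after quantile normalization (15.3% and 8.64% of all tested probe sets) and 25 higher and 0 lower with equal array medians (17.0% and 6.81%), where the median of all tested probe sets itself shifted to 0.15.

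The members that rose were not all high at the same passages. mRpL48 had intensities of 431, 405 and 442 in the R7 early arrays, 620.2 at P4, 639 and 656 at P7 and P8 and 669, 763 and 662 in the late arrays. It was already high at P4, and late exceeded early 1.64-fold (log2 0.71 ± 0.13 SE, limma adjusted p = 0.00343). mRpL36, a small protein with a bacterial counterpart, had intensities of 401, 431 and 373 in the R7 early arrays, 353 at P4, 482 and 533 at P7 and P8 and 609, 628 and 606 in the late arrays. All 3 late arrays were above all earlier ones, by 1.53-fold (log2 0.62 ± 0.12 SE, limma adjusted p = 0.00449) against early. mRpL44, whose human counterpart has a ribonuclease III fold, had intensities of 503, 484 and 436 in the R7 early arrays, 433 at P4, 515 and 606 at P7 and P8 and 666, 678 and 739 in the late arrays. Its lowest arrays were P3 and P4, and late exceeded early 1.46-fold (log2 0.55 ± 0.12 SE, limma adjusted p = 0.00670). mRpS18A, whose human counterpart sits in the large subunit, had intensities of 459, 462 and 405 in the R7 early arrays, 389 at P4, 448 and 488 at P7 and P8 and 598, 622 and 645 in the late arrays. It was lowest at P3 and P4, and late exceeded early 1.41-fold (log2 0.49 ± 0.13 SE, limma adjusted p = 0.0172).

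mRpL47, whose bacterial counterpart sits beside the exit tunnel for the new protein, had intensities of 951, 857 and 789.8 in the R7 early arrays, 739.6 at P4, 893 and 967 at P7 and P8 and 1233, 1148 and 1228 in the late arrays. The late arrays were above all others, 1.39-fold (log2 0.48 ± 0.080 SE, limma adjusted p = 0.00174) over early, and a second probe set of this gene gave 0.56 (log2, adjusted p = 0.00427). The only other member with 2 probe sets, mRpS11, was called by neither (-0.24 and -0.15). mRpL50, found only in mitochondria, and mRpL22, a protein of the exit tunnel, rose as well, 1.23-fold (adjusted p = 0.0357) and 1.17-fold (adjusted p = 0.0451). mRpL22 is named beyond the naming rule, after its value was seen.

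All 5 members that fell encode large-subunit proteins, and 4 of them have bacterial counterparts. mRpL9 had intensities of 614, 576 and 540.5 in the R7 early arrays, 431 at P4, 449 and 408 at P7 and P8 and 413, 372 and 377 in the late arrays. All arrays from P4 on were below the early ones, and late was 1.49-fold lower than early (log2 -0.57 ± 0.15 SE, limma adjusted p = 0.0186). mRpL28 had intensities of 1569, 1518 and 1239 in the R7 early arrays, 1274 at P4, 1299.7 and 1302 at P7 and P8 and 1023, 949.7 and 924 in the late arrays. Late arrays were below all others, 1.49-fold (log2 -0.57 ± 0.15 SE, limma adjusted p = 0.0211) under early. mRpL16, which lies near the peptidyl transferase centre, had intensities of 941, 876 and 836 in the R7 early arrays, 795 at P4, 775 and 721 at P7 and P8 and 756, 716 and 733 in the late arrays. It was below early from P4 on, in late by 1.20-fold (log2 -0.27 ± 0.083 SE, limma adjusted p = 0.0395). mRpL30 had intensities of 1148, 1134 and 1116 in the R7 early arrays, 1157 at P4, 1189 and 1275 at P7 and P8 and 869, 1087 and 819.9 in the late arrays. Its 3 late arrays were the lowest, with P17 nearest to early, and late was 1.23-fold lower than early (log2 -0.30 ± 0.097 SE, limma adjusted p = 0.0445). mRpL43, the member of these 5 that is found only in mitochondria, had intensities of 238, 245 and 219 in the R7 early arrays, 192 at P4, 225 and 201 at P7 and P8 and 193, 193 and 158 in the late arrays. It fell 1.30-fold (log2 -0.37 ± 0.12 SE, limma adjusted p = 0.0452). None of these 5 was called with equal array medians, where their changes were -0.33, -0.33, -0.022, -0.060 and -0.13 in the order given (adjusted p = 0.0582 to 0.912), and their direction was the same. That scaling aligns array medians, which lie below the floor of 32.

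The calls of mRpL36, mRpL44, mRpL47 and mRpL48 were made in each of the 18 fits with 1 array left out and in each of the 10 other alternatives. The call of mRpS18A was lost without R7 P19 (adjusted p = 0.0649). Those of mRpL9 and mRpL28 were lost without R7 P19, P17 or either P2 replicate (adjusted p = 0.0547 to 0.0799), and that of mRpL50 without R7 P19, P17, P16, P3 or P2 replicate 2 (0.0670 to 0.128). At least 1 of the calls of mRpL16, mRpL22, mRpL30 and mRpL43 was lost without R7 P19, P17, P16, P8, P7, P3 or either P2 replicate, or R3 P17, P16, P8, P7, P6 or P5 (0.0515 to 0.187). Of the 18 fits, 7 lost the call of mRpL16, 9 that of mRpL22, 12 that of mRpL30 and 12 that of mRpL43. Among the other alternatives, quantile normalization lost mRpL16 (0.0741) and mRpL43 (0.132). A floor of 16 lost mRpL16, mRpL22, mRpL30 and mRpL43 (0.0547 to 0.0640). P4 counted as early lost mRpL9, mRpL16, mRpL22 and mRpL43 (0.0503 to 0.103). The call of mRpL22 was also lost without the dimmest 30% of probe sets (0.0537) and with an intensity trend and robust prior (0.0510). The count of 12 called members was 4 without R7 P19, 5 without R7 P2 replicate 2, 6 without R7 P2 replicate 1, 6 without R7 P17 and 7 without R7 P16. The shares of all tested probe sets called in these fits are not given here, so the drop cannot be read as particular to the members. All groups share 1 estimate of the spread, so R3 arrays enter too, and without R3 P19 and R3 P2 replicate 2 the count was 24, against 29.7% of all tested probe sets.

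**Figure D3:**
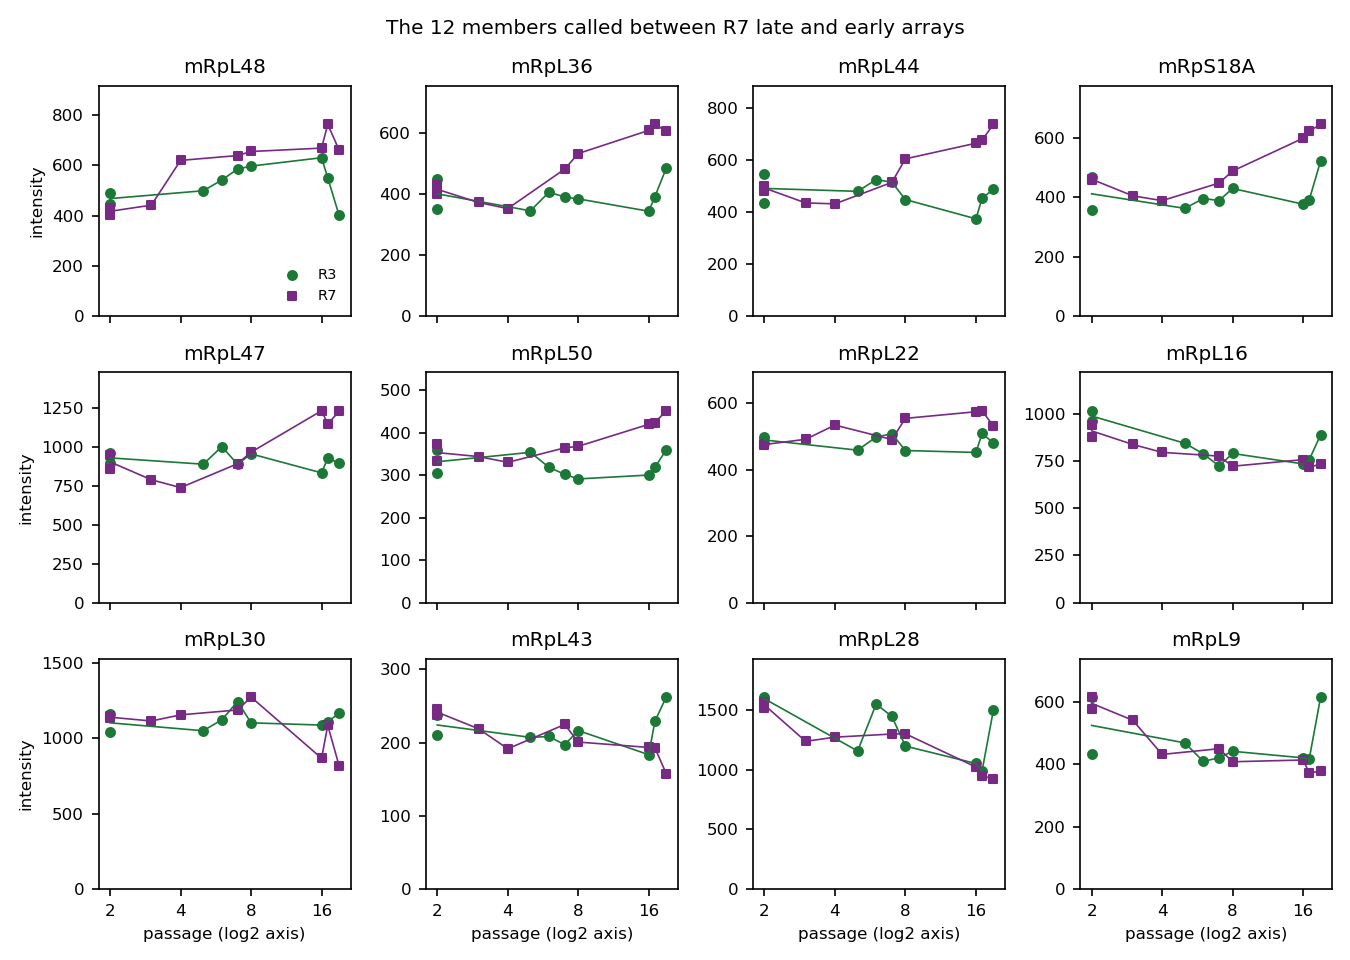
Intensity (y axis, from 0) against passage (x axis, log2 scale) for the 12 members called between R7 late and early arrays, with R3 as green circles and R7 as purple squares, 1 point per array and lines through the mean per passage. Panels run from the largest rise (mRpL48) to the largest fall (mRpL9). In mRpL36, mRpL44, mRpL47 and mRpS18A the 3 late R7 points lie above the 3 late R3 points.

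Split at the intermediate stage, the R7 change gave few calls. Between R7 early and intermediate arrays 0 members were called by limma and 4 had an unadjusted p under 0.05. Over all tested probe sets 2.48% were called and 19.4% had an unadjusted p under 0.05. mRpL48 came nearest (log2 0.61 ± 0.15 SE, limma adjusted p = 0.0535), ahead of mRpL16 (log2 -0.24 ± 0.092 SE, adjusted p = 0.171). Between R7 intermediate and late arrays, mRpL47 rose (log2 0.37 ± 0.090 SE, adjusted p = 0.0333) and mRpL30 fell (log2 -0.42 ± 0.11 SE, adjusted p = 0.0444), against 4.68% of all tested probe sets (2.02% higher and 2.66% lower). The mRpL47 call was lost without R7 P19, P16, P8, P7 or P2 replicate 2 (0.0526 to 0.351), and its second probe set was not called (0.30, adjusted p = 0.221). The mRpL30 call was lost without R7 P19, P16, P8, P7, P3 or either P2 replicate, or R3 P17, P16, P8, P6 or P5 (0.0509 to 0.231).

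A slope on log2 of the passage number over all 9 R7 arrays, P4 included, called 8 members higher and 4 lower, 17.4% of the 69, against 8.56% and 11% of all tested probe sets, 19.6% in all. The slopes with the smallest adjusted p were those of mRpL36 (0.22 ± 0.045 SE log2 units per doubling of the passage number, adjusted p = 0.00419) and mRpL48 (0.23 ± 0.050 SE, 0.00553). Downward they were mRpL28 (-0.19 ± 0.048 SE, 0.0121) and mRpL9 (-0.19 ± 0.051 SE, 0.0165). The mRpL9 slope was not called without R7 P2 replicate 1 (0.0667) or replicate 2 (0.0549). With equal array medians neither the mRpL9 slope (0.0597) nor the mRpL28 slope (0.0978) was called. mRpL12, whose bacterial counterpart forms the stalk that binds translation factors, is named after its values were seen. It was called higher by the slope (adjusted p = 0.0298) and not between late and early (adjusted p = 0.0618), and the slope call was lost without R7 P19, P17, P3 or either P2 replicate (0.0518 to 0.0865). Of the late against early calls, mRpL30 was the one without a called slope (adjusted p = 0.0878). The slope count of 12 was 6 with R7 P17 left out and 7 with R7 P19 or either R7 P2 array left out. The shares of all tested probe sets called in those fits are not given here either.

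In R3, 0 members were called between early and late arrays by limma and 2 had an unadjusted p under 0.05. Over all tested probe sets 0% were called and 6.01% had an unadjusted p under 0.05. The median change was -0.051 (log2). mRpL16 had 1015 and 959 at P2, 843, 787, 723 and 789 in the intermediate arrays and 734, 756 and 886 in the late arrays. Its early arrays lay above all others (log2 -0.32 ± 0.092 SE, limma adjusted p = 0.754). mRpL28 had 1609 and 1582 at P2, 1158, 1551, 1447 and 1199 in the intermediate arrays and 1053, 990.1 and 1500.0 in the late arrays (log2 -0.46 ± 0.17 SE, adjusted p = 0.768). The late arrays lay wholly below the early ones in 2 of 69 members and wholly above in 0, against 8.68% and 3.18% of all tested probe sets. mRpL40, found only in mitochondria, had 519 and 393 at P2 and 273, 317 and 479 in the late arrays (log2 -0.38 ± 0.19 SE, adjusted p = 0.833).

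The other R3 comparisons also called 0 members by limma. Between intermediate and early arrays the smallest adjusted p were those of mRpL16 (log2 -0.33 ± 0.088 SE, adjusted p = 0.649) and mRpL39, found only in mitochondria (log2 -0.27 ± 0.13 SE, 0.696). Between late and intermediate arrays they were mRpL28 (log2 -0.19 ± 0.14 SE, 0.915) and mRpL35 (log2 0.31 ± 0.23 SE, 0.915). For mRpL35 the late arrays held 223, 259 and 443, so that P19 alone lay above the intermediate range of 213 to 259.9. The R3 slopes of mRpL16 (-0.097 ± 0.032 SE, 0.722) and mRpL28 (-0.14 ± 0.051 SE, 0.765) were not called either. An unadjusted p under 0.05 was found for 1, 0 and 2 members in the 3 comparisons. Over all tested probe sets the shares were 7.16%, 4.17% and 5.71%. All 3 comparisons called 0% of all tested probe sets.

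**Figure D4:**
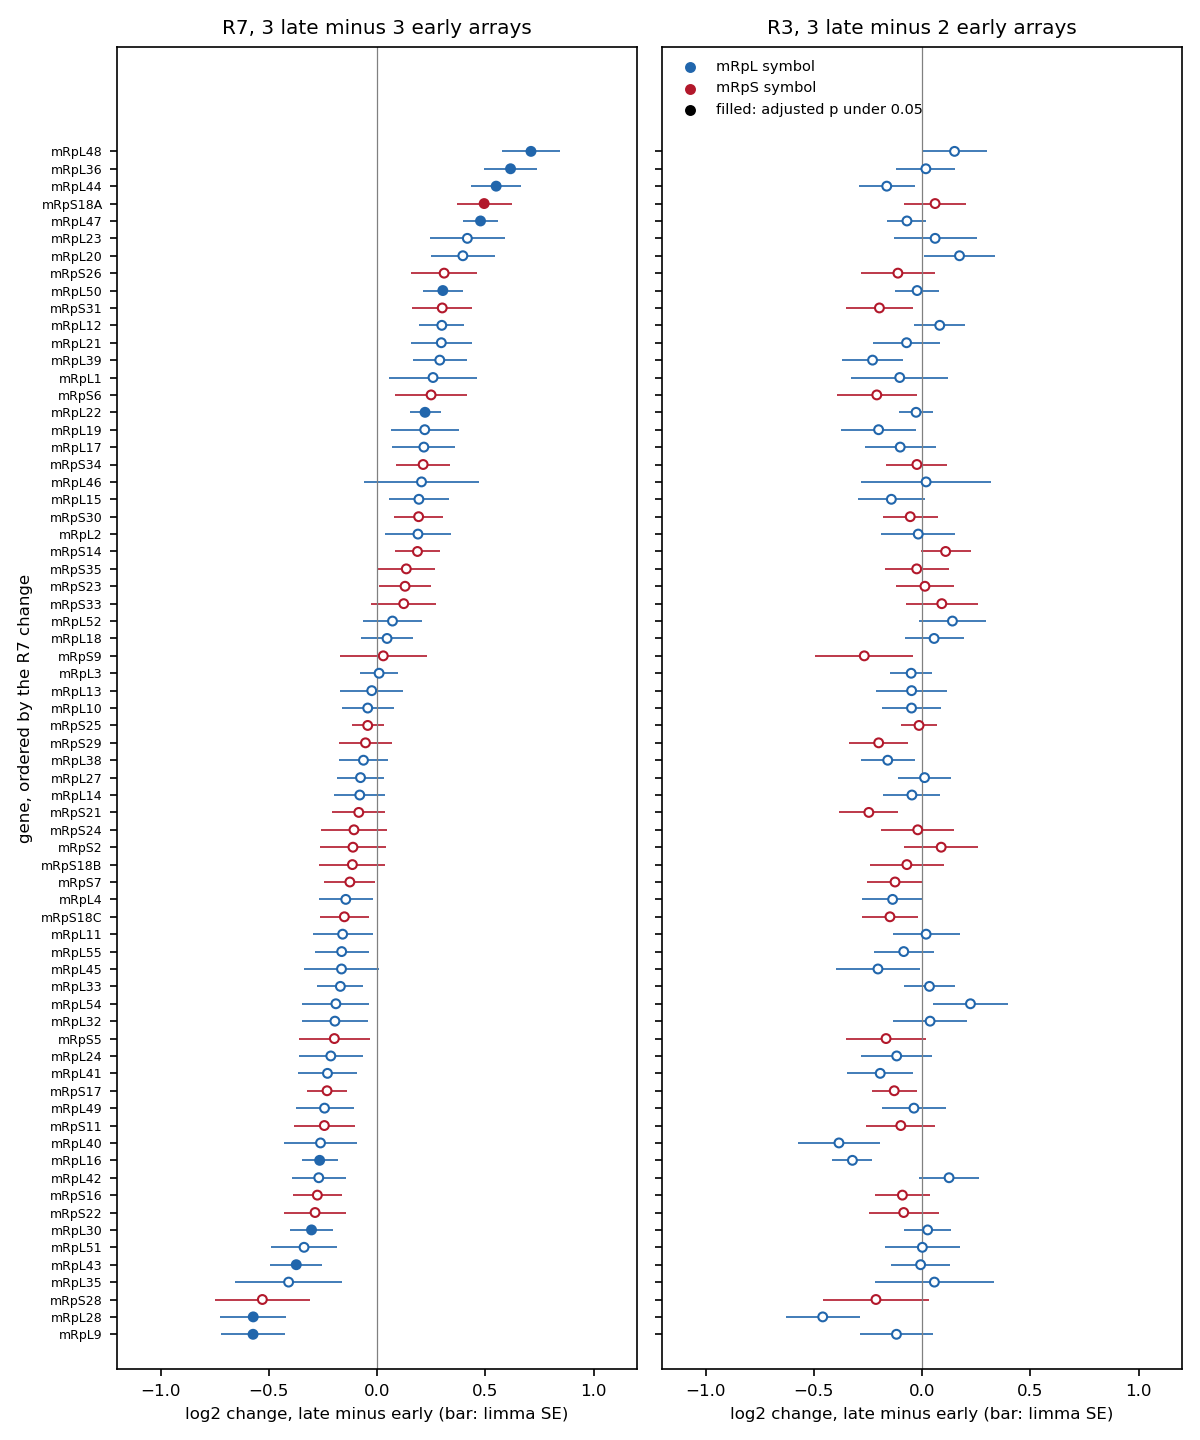
Log2 change from early to late (x axis) of each of the 69 members (y axis, ordered by the R7 change) in R7 (left) and R3 (right), with limma's standard error as bars, blue for mRpL and red for mRpS symbols and filled points for adjusted p under 0.05. R7 has 12 filled points, 11 of them with an mRpL symbol, and R3 has 0.

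The R3 result depended on which arrays were in the fit. Arrays P2 replicate 2 and P19 were left out together because earlier results of these data pointed to them. That leaves 1 early array in which the members are high (P2 replicate 1, 0.24 in the median member), assumed to vary like the other groups, against 2 late arrays in which they are low (-0.20 and -0.087), so the arrays left out fix the direction, and the counts of this fit are a description. In that fit 25 of 69 members fell and 0 rose from early to late, 16 of 44 mRpL and 9 of 25 mRpS genes, against 6.26% of all tested probe sets lower and 3.86% higher. The median member changed by -0.38 (log2), against 0.00 for all tested probe sets, and 67 of 69 changes were downward. From early to intermediate arrays 15 members fell and 0 rose (median -0.29), against 6.5% and 3.04%. The members with the smallest adjusted p late against early, named after the values were seen, were mRpL40 (log2 -0.82 ± 0.14 SE, limma adjusted p = 0.00414), mRpS9 (-0.81 ± 0.14, 0.00414) and mRpL1, whose bacterial counterpart forms the stalk where tRNA leaves (-0.73 ± 0.13, 0.00569). mRpS9 had 609 and 435 at P2, 381, 444, 364 and 409 in the intermediate arrays and 359, 338 and 644 in the late arrays. With all 18 arrays its late and early arrays overlapped. Leaving out P2 replicate 1 in place of replicate 2, together with P19, a choice made after the values were seen, called 0 members late against early (median 0.011, 0.717% of all tested probe sets called) and 0 intermediate against early. With 2 P2 arrays, neither can be said to be the one that stands apart. Without R3 P19 alone 1 member was called, and without R3 P2 replicate 2 alone 0, with the shares of all tested probe sets not given here. R3 P2 replicate 1 is also 1 of the 2 R3 arrays with a high array median, and the part of that in the falls was not tested.

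Between the late arrays of the lines, 5 members were higher in R7 and 0 were lower by limma, against 5.27% and 2.35% of all tested probe sets. The share of members called, 7.25%, was near the 7.63% of all tested probe sets, and the median difference was 0.0093 (log2). The 5 were mRpL44 (log2 0.67 ± 0.12 SE, limma adjusted p = 0.00363), mRpL36 (log2 0.61 ± 0.12 SE, limma adjusted p = 0.00862), mRpS18A (log2 0.55 ± 0.13 SE, limma adjusted p = 0.0182), mRpL47 (log2 0.44 ± 0.080 SE, limma adjusted p = 0.00468) and mRpL50 (log2 0.41 ± 0.092 SE, limma adjusted p = 0.0163). mRpL44 had 375, 454 and 489.5 in R3 late, below its R7 late values of 666, 678 and 739. mRpL47 had 834, 928 and 897 in R3 late and 1233, 1148 and 1228 in R7 late. In these 5 genes the lowest R7 late array was above the highest R3 late array. The late arrays of the lines did not overlap in 14 members higher in R7 and 3 lower, against 12.6% and 9.32% of all tested probe sets. The calls of mRpS18A and mRpL50 were lost without R3 P16 (0.0717 and 0.0649), R3 P17 (0.0662 and 0.0514) or R7 P19 (0.0794 and 0.0794). Without R3 P19 alone 15 members were higher in R7 late and 0 lower, with 8.28% of all tested probe sets called. The count was 3 without R3 P17 (6.10% of all tested) and 3 without R7 P19 (3.64%). Without R3 P2 replicate 2 and R3 P19 it was 19 higher and 0 lower, against 5.99% and 5.23% of all tested probe sets. Leaving out P19 takes away the late R3 array in which the members are high.

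At the earlier stages 0 members differed between the lines by limma, with 0 (early) and 4 (intermediate) at an unadjusted p under 0.05. Over all tested probe sets 1.07% and 1.88% were called, and 9.42% and 10.9% had an unadjusted p under 0.05. In the early arrays the smallest adjusted p were those of mRpL16 (log2 -0.16 ± 0.092 SE, 0.620) and mRpS30 (log2 -0.18 ± 0.13 SE, 0.692). In the intermediate arrays they were mRpL36 (log2 0.41 ± 0.13 SE, 0.180) and mRpS14 (log2 0.31 ± 0.11 SE, 0.261). The median difference was 0.0049 in early and 0.081 in intermediate arrays.

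The change from early to late itself differed between the lines for 2 members, both higher in R7, 2.90% of the 69, against 1.65% higher and 1.26% lower of all tested probe sets, 2.91% in all. For mRpL47 the change in R7 minus that in R3 was 0.55 ± 0.12 SE (log2, limma adjusted p = 0.0275), from means of 866 ± 81.2 (SD, n = 3) and 1203 ± 47.7 (n = 3) in R7 and 930.4 ± 42.2 (n = 2) and 887 ± 48.1 (n = 3) in R3. For mRpL44 it was 0.71 ± 0.17 SE (adjusted p = 0.0460), from 475 ± 34.5 and 694 ± 38.8 in R7 and 492 ± 77.2 and 439.6 ± 58.4 in R3. mRpL36 had 0.60 ± 0.18 SE and was not called (adjusted p = 0.105). The mRpL47 call was lost without R7 P19, P16 or P2 replicate 2, or R3 P16 or either P2 replicate (0.0541 to 0.0734), and its second probe set was not called (0.51, adjusted p = 0.123). The mRpL44 call was lost in 15 of the 18 fits with 1 array left out, all but those without R3 P19, R3 P2 replicate 2 or R7 P4 (0.0502 to 0.117). It was also lost at a floor of 16 (0.0655) and without the dimmest 30% (0.0537). Without R3 P2 replicate 2 and R3 P19 the count was 15, all higher in R7 minus R3, against 2.35% higher and 1.73% lower of all tested probe sets. Without R3 P2 replicate 1 and R3 P19 it was 2 higher and 2 lower, and neither mRpL47 (0.0635) nor mRpL44 (0.0549) was among them. The share of all tested probe sets called in that fit is not given here.

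The nuclear genes of the respiratory chain and the ATP synthase were also high in R3 P2 replicate 1 and R3 P19 and low in R7 P3 and P4. Their median deviation over 59 tested genes was 0.27 (log2) in R3 P2 replicate 1, -0.17 in R3 P2 replicate 2 and 0.25 in R3 P19. It was 0.10 and 0.075 in the R7 P2 arrays and -0.071 and -0.12 in R7 P3 and P4. Their level differed from that of the members in R7 P16 (-0.071, members 0.087), R7 P7 (-0.038, members 0.011) and R3 P16 (-0.065, members -0.20). The cytosolic ribosomal proteins, with 37 tested genes, lay at 0.032, 0.014 and -0.11 in the same 3 R3 arrays, and at 0.078, -0.021, -0.11 and -0.040 in the 4 R7 arrays. Of the 90 respiratory chain genes 71 had a named probe set, and of the 93 cytosolic ribosomal protein genes 41 had one. These medians carry no test of a difference between lists.

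**Figure D5:**
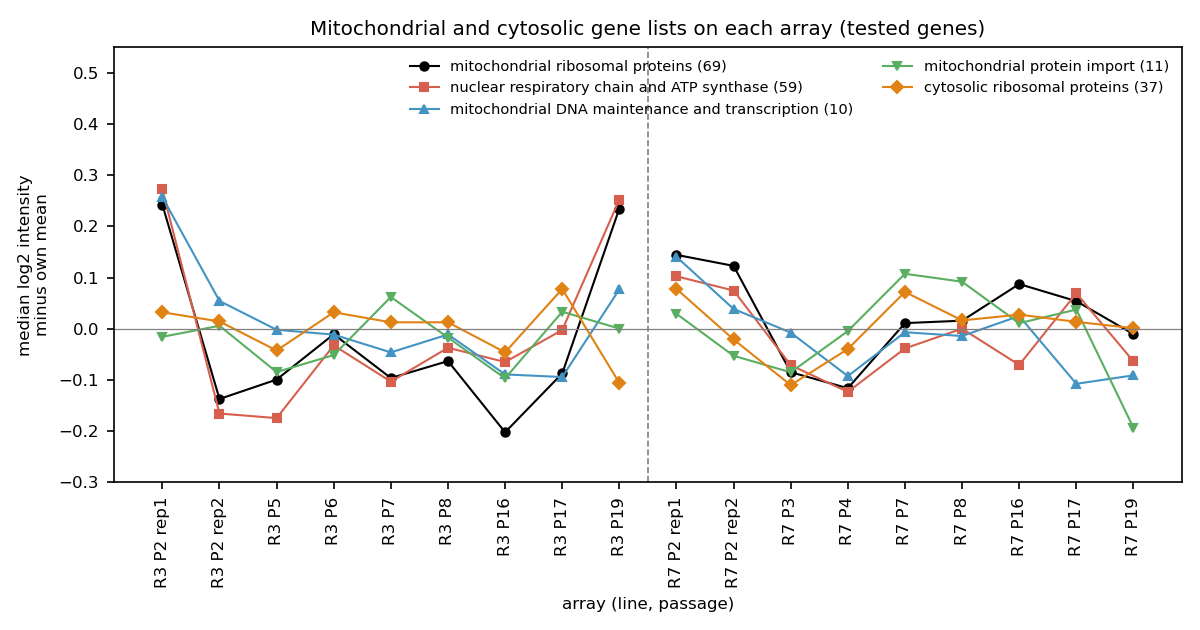
Median deviation from each gene's own mean (log2, y axis) on each array (x axis) for the 69 mitochondrial ribosomal protein genes and 4 other lists, with the number of tested genes in brackets. The black and red lines, mitochondrial ribosome and respiratory chain, peak together in R3 P2 replicate 1 and R3 P19, where the cytosolic ribosomal proteins do not.

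The rest of the mitochondrial translation apparatus was read in R7 late against early, from lists chosen with earlier results of these data known. tko and bonsai, small-subunit proteins whose symbols do not follow the naming scheme, were not called (log2 -0.35, adjusted p = 0.0698, and log2 -0.047, adjusted p = 0.859). tko had 451, 488 and 456 in R7 early and 426, 353 and 324 in R7 late. Of 9 translation factors 2 fell and 0 rose, namely the elongation factors mEFTu2 (log2 -0.50, adjusted p = 0.0373) and mEFTs (log2 -0.28, adjusted p = 0.0455). The recycling factor mRRF2 was not called (log2 0.37, adjusted p = 0.158). Of 15 mitochondrial aminoacyl-tRNA synthetases, which charge tRNAs, 3 rose and 0 fell, with ArgRS-m (log2 0.57, adjusted p = 0.00758), TrpRS-m (log2 0.37, adjusted p = 0.0130) and ValRS-m (log2 0.49, adjusted p = 0.0386). The median changes of these lists were -0.18 and -0.043, beside -0.030 over all tested probe sets. Of all tested probe sets 8.75% rose and 11.2% fell, 19.9% in all.

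The lists below were read in the same comparison, where 8.75% of all tested probe sets rose and 11.2% fell, 19.9% in all. Of 10 genes for mitochondrial DNA maintenance and transcription 0 were called in R7 by limma. The smallest adjusted p were those of the mitochondrial RNA polymerase PolrMT (log2 -0.33, adjusted p = 0.228), the packaging factor TFAM (log2 -0.23, adjusted p = 0.265) and mTerf5 (log2 -0.12, adjusted p = 0.387). Of 11 import genes 2 rose and 0 fell, the outer membrane receptors Tom20 (log2 0.29, adjusted p = 0.0274) and mge (log2 0.34, adjusted p = 0.0358), while Tim17b was not called (log2 0.17, adjusted p = 0.103). Of 7 mitochondrial chaperones and proteases 0 were called, with Spg7 (log2 -0.39, adjusted p = 0.0810), ClpX (log2 -0.27, adjusted p = 0.134) and Trap1 (log2 -0.21, adjusted p = 0.147) nearest. Of 59 respiratory chain genes 3 rose and 2 fell, among them the complex I subunit ND-19 (log2 -0.82, adjusted p = 0.00739), the cytochrome oxidase subunit COX7A (log2 0.43, adjusted p = 0.0148) and ND-ACP (log2 0.46, adjusted p = 0.0229). Of 37 cytosolic ribosomal proteins 1 rose and 0 fell, RpS5b, a second copy of RpS5a (log2 2.41, adjusted p = 0.0357), and neither RpS19b (log2 -0.74, adjusted p = 0.0847) nor RpL7-like (log2 -0.33, adjusted p = 0.155) was called. Of 6 tested regulators 1 rose, the growth kinase S6k (log2 0.50, adjusted p = 0.00150), and ewg (log2 -0.28, adjusted p = 0.268) and clu (log2 -0.17, adjusted p = 0.337) were not called.

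In R3 late against early 0 genes of these lists were called with all 18 arrays. The fit without R3 P2 replicate 2 and R3 P19, in which the arrays left out fix the direction for genes that are high in R3 P2 replicate 1 and P19, is given as a description. In that fit, with 1 early R3 array, the median change was -0.28 (log2) in 59 respiratory chain genes. It was -0.37 in 10 genes of mitochondrial DNA maintenance and transcription and -0.14 in 9 translation factors. In 15 mitochondrial aminoacyl-tRNA synthetases it was -0.15, in 11 import genes 0.027 and in 37 cytosolic ribosomal proteins -0.013. The median over all tested probe sets was 0.00.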

How the data were processed

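Total RNA of 18 samples was labelled with biotin for Affymetrix 3' expression arrays, per the labels' protocols. The authors deposited intensity values on a linear scale, 1 per probe set; how they were summarised and scaled is not given in the sources used here. Of 18952 probe sets, 183 were controls; of the rest 13647 had 1 gene symbol in the array annotation, 402 several and 4720 none. Symbols were updated through RefSeq (Release 6), from which no coordinates were taken.

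Values under 32 were set to 32 before log2. Groups were compared in 1 fit of 18 arrays and 7 groups (limma 3.58.1, R 4.3.3, lmFit and eBayes), slopes on log2 passage in a second. The group fit was run on simulated data for late against early in R7 and R3 only. The slope fit was not run on simulated data. The number of arrays limits the precision. Members and lists were chosen with earlier results of these data known. Named with values were up to 5 called members per direction late against early in R7 and R3, in R7 minus R3 late and in the difference of changes (the 3 smallest adjusted p where under 3 were called), the 2 smallest in other comparisons, tko, bonsai and 3 genes per other list. The comparison of P3 and P4 with P2 in R7 and the scaling checks of array patterns were chosen after seeing the data. Sequences are not used here.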

Additional observations from a re-analysis of the deposited data

Results flagged for a closer look

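The change from early to late arrays differed between the lines by limma's interaction term in 2 of the members named. For mRpL44 the change in R7 exceeded that in R3 by 0.71 ± 0.17 SE (log2, adjusted p = 0.0460), and all 3 R7 late arrays were above all 3 R7 early arrays. For mRpL47 it exceeded it by 0.55 ± 0.12 SE (adjusted p = 0.0275), with the same separation in R7. A second probe set of mRpL47 gave 0.51 and was not called (adjusted p = 0.123). The R3 side of both rests on 2 P2 arrays in which the members' medians were 0.24 and -0.14 (log2) from their means, and on late arrays of which P19 was high (0.23). The mRpL47 call was lost in 6 of the 18 fits with 1 array left out and the mRpL44 call in 15.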

How the results depend on the processing

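The count of called members was recomputed for 12 comparisons. In the main fits, 19.9% of all tested probe sets were called late against early in R7 and 19.6% by the R7 slope. The shares were 2.48% for R7 intermediate against early and 4.68% for R7 late against intermediate. They were 7.63% for R7 minus R3 late and 2.91% for the difference of changes. These shares also move between fits, as given above for R7 late against early, so counts alone do not set the members apart. Late against early in R7 it was 12, and 25 with equal array medians, 24 without R3 P2 replicate 2 and R3 P19 and 4 to 16 with 1 array left out. For the R7 slope (12) these were 24, 20 and 6 to 16. In R3, with 0 in each comparison, the fit without R3 P2 replicate 2 and R3 P19 gave 25 late against early, 15 intermediate against early and 5 for the slope, and fits with 1 array left out gave 0 to 1, 0 to 0 and 0 to 4; late against intermediate stayed at 0, with 0 to 0. For R7 intermediate against early (0) the count was 1 after quantile normalization, with equal medians, with an intensity trend and robust prior and with P4 as intermediate, 3 without the 2 R3 arrays and 0 to 1 with 1 left out. For R7 late against intermediate (2) it was 1 after quantile normalization, without the dimmest 30% and with the mean over a gene's probe sets, 0 with equal medians or a floor of 16, 4 without the 2 R3 arrays and 0 to 3 with 1 left out. For R7 minus R3 it was 1 in place of 0 in intermediate arrays without the 2 R3 arrays, and in late arrays (5) 12 with equal medians, 19 without the 2 R3 arrays and 3 to 15 with 1 left out. For the difference of changes (2) it was 9 with equal medians, 1 at a floor of 16 and without the dimmest 30%, 15 without the 2 R3 arrays and 0 to 4 with 1 left out. Equal medians shifted the median of all tested probe sets to 0.15 late against early in R7 and to 0.24 in the difference of changes. That scaling aligns array medians, which lie below the floor of 32. Without R3 P2 replicate 1 and R3 P19, chosen after seeing the data, the counts were 24 late against early, 3 intermediate against early, 4 late against intermediate and 22 for the slope in R7. They were 0 in each R3 comparison, and for R7 minus R3 3 in early, 1 in intermediate and 19 in late arrays and 4 for the difference of changes. The cause of these shifts was not tested. None of the members named by the rule changed direction in the comparison it is named for (39 results); tko, bonsai, genes of the other lists and second probe sets were not recomputed. Members lie far above the floor, so signal over background limits them little.

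With the shared number (P2 replicate or passage) as a replicate block between the lines, 0 members were called in late arrays, 0 in the difference of changes, 0 in early and 0 in intermediate arrays. The share of all tested probe sets called in that fit is not given here. Arrays of the 2 lines that share a number did not deviate together from the mean of their line and stage (correlation over 10200 probe sets -0.083 to 0.051). The 2 P2 pairs necessarily give the same value, as do P7 and P8. Anything shared by a whole stage is removed by taking that mean, so this check cannot see it.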
